A study of Mus musculus with 3 samples.

Results

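Transcripts of 4 mouse genes of antigen presentation were compared between liver and spleen. They are the MHC class II genes Ciita, H2-Oa and Cd74, and B2m, which encodes the MHC class I light chain. Members were all spots of a cDNA array that the platform annotation assigns to 1 of these symbols alone, which gave 7 spots for 4 of 7984 named genes: 1 for Ciita, 1 for H2-Oa, 3 for Cd74 and 2 for B2m. Double-round amplified RNA from commercial preparations of spleen (labelled with Cyanine-3) and liver (Cyanine-5) was hybridised together on each of 3 arrays, which form 1 group. The labels give no strain, age, sex or treatment of the mice and are silent on whether the arrays hold separate extracts or repeats of 1 extract. The p-values therefore measure array-to-array spread alone, possibly technical. Spleen was green and liver red on each array, so an effect of the dye on a gene and a difference between tissues cannot be told apart.

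MHC class II molecules carry peptides from engulfed protein to the surface of B cells, dendritic cells and macrophages, where CD4 T cells read them. Ciita is the coactivator on which transcription of class II genes depends. Cd74, the invariant chain, escorts new class II molecules to the endosome and blocks their groove, and H2-Oa is a chain of H2-O, which restrains peptide exchange in B cells. MHC class I molecules, which show peptides from within the cell to CD8 T cells, occur on nearly all nucleated cells, and B2m is the chain they share. The spleen is rich in class II-bearing cells, whereas liver is mostly hepatocytes, which carry class I.

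The RefSeq promoter windows (build GRCm38.p6, 250 bases before to 50 after the start of transcription) are shown for H2-Oa and B2m. These were the 2 of 4 members with a window in the set used here, and they lay on opposite sides of the comparison. Ciita and Cd74 had none there. Class II promoters are known for an X box, bound by the RFX complex, followed by an inverted CCAAT box (the Y box), bound by NF-Y, on which Ciita docks. Capitals mark matches on either strand to 4 patterns picked with the sequences in view: CCAAT, the X box core AGCAAC, a kappa B pattern (GGGA, any 3 bases, TCC) and an interferon-response pattern (GAAA, any 2 bases, GAAA). H2-Oa lies at chr17:34092129-34092428 (plus strand) and B2m at chr2:122147437-122147736 (plus strand).
H2-Oa: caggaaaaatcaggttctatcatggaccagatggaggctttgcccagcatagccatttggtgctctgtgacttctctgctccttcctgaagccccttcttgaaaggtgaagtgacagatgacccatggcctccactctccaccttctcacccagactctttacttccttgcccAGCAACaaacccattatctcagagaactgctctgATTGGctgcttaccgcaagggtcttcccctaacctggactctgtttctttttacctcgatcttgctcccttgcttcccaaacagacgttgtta
B2m: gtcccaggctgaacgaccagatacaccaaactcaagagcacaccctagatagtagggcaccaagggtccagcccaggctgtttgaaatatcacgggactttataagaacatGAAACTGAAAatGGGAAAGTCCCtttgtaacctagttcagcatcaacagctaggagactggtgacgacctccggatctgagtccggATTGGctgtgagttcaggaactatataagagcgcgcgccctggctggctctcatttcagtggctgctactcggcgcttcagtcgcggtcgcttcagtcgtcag

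The H2-Oa window held AGCAAC from position -77 to -72 relative to the start and an inverted CCAAT from -43 to -39. The B2m window held an inverted CCAAT from -53 to -49, the interferon-response pattern from -139 to -130, and the kappa B pattern on both strands, overlapping itself, from -127 to -117. Among 32851 RefSeq windows of the same length (mouse chromosome 18 left out), 37.4% held CCAAT, 14.8% AGCAAC, 5.84% both of these, 4.59% the kappa B pattern and 3.44% the interferon-response pattern. These matches describe letters and not binding. Only the exact string AGCAAC was searched, so its absence from the B2m window does not show that B2m lacks an X box. Whether these promoters bear on the ratios was not tested.

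The measurement was 1 log2 ratio per spot and array, as deposited by the authors. Positive values are called higher in liver and negative values higher in spleen. This direction is likely rather than stated: on arrays 1, 2 and 3 a hepatocyte list had medians of 5.17, 5.17 and 4.97 (7 genes with a value, of which Ttr on array 1 only). A B-cell list had -3.71, -3.57 and -2.20 (5 genes, of which Spib on arrays 2 and 3 only). Neither list holds a member. A ratio was given for 13066, 11120 and 15210 of 16273 spots on arrays 1, 2 and 3. An exact 0 stood for the rest and was read as a missing ratio. Depth is unknown, since channel intensities were not used here, and the 3 arrays limit the precision. In whole tissue, fewer cells of a type and less RNA per cell cannot be told apart.

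The 3 class II genes were higher in spleen on each array, by mean folds from 2.35 to 3.00, and B2m was slightly higher in liver. Ciita had log2 ratios of -1.51, -1.92 and -1.33 on arrays 1, 2 and 3, with the lowest value on array 2. Its mean was -1.59 ± 0.31 (SD, n = 3 arrays), 3.00-fold higher in spleen, with a limma adjusted p of 0.000632. It rested on a single clone, AA178010. This was the only member whose call was kept in all 12 alternative analyses (limma adjusted p from 2.18e-05 to 0.0489).

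H2-Oa had log2 ratios of -1.93, -1.46 and -1.23, with array 1 furthest to the spleen side. The mean was -1.54 ± 0.36 (SD, n = 3 arrays), or 2.91-fold higher in spleen (limma adjusted p = 0.000936). It too was measured by 1 clone, AK020594. Its call was lost when each gene's own variance replaced the moderated one (limma adjusted p = 0.0583, the highest of its 12 alternatives, which start at 3.09e-05).

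Cd74 was measured by 3 clones that did not give the same size of difference. Clone AK020607 gave log2 ratios of -1.91, -1.64 and -1.27, with a mean of -1.60 ± 0.32 (SD, n = 3 arrays; limma adjusted p over spots 0.000414). Clone BC003476 gave -1.24, -1.39 and -0.40, with a mean of -1.01 ± 0.54 (limma adjusted p over spots 0.00844, and 0.0529 without array 1). The third clone, AK002232, had a ratio on array 3 only, of -0.20. Each value of AK020607 lay below the value of BC003476 on the same array, and all 7 values of these clones were negative. Among 10614 tested spots, 29.6% were called on the spleen side, as both of these tested clones were, and 28.7% on the liver side.

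The gene mean of Cd74, with all clones that had a value averaged, was -1.57, -1.51 and -0.62 on arrays 1, 2 and 3. Array 3 thus stood apart, and it is also the array on which the third clone entered the mean. The overall mean was -1.24 ± 0.53 (SD, n = 3 arrays), 2.35-fold higher in spleen (limma adjusted p = 0.00535). The call was lost without array 1 (limma adjusted p = 0.0534) and with the gene's own variance (0.117), over a range from 0.000454 to 0.117 in 12 alternatives. A smaller SD was found for 89.8% of tested genes, which puts Cd74 among the more variable ones, against 67.4% for Ciita, 74.4% for H2-Oa and 52.4% for B2m. Part of this spread came from the third clone. With only the clones measured on all 3 arrays averaged, Cd74 had a mean of -1.31 ± 0.41.

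B2m had log2 ratios of 0.67, 0.22 and 0.54, all on the liver side, with array 2 lowest. Its mean was 0.48 ± 0.23 (SD, n = 3 arrays), 1.39-fold higher in liver, with a limma adjusted p of 0.0311. All of this came from clone AK019389. The other clone, AK020632, was at exact 0 on each array, as were 748 spots in all (4.60%). The call was lost without array 1 (limma adjusted p = 0.201), without array 3 (0.108), with its own variance (0.135) and with exact zeros kept as ratios, where the mean was 0.24 (0.112). The range over 12 alternatives ran from 0.00949 to 0.201.

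**Figure D1:**
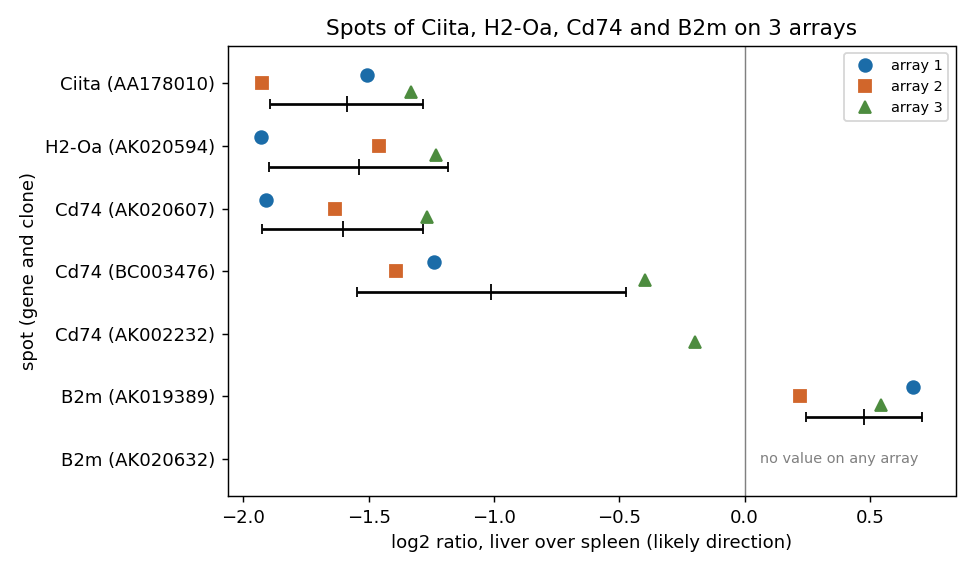
Log2 ratios of liver over spleen (likely direction) for the 7 spots of the 4 genes, with 1 point per array and, for spots with 3 values, a bar for mean ± SD. All values of the 3 class II genes lie below 0 and the 3 values of B2m above 0, and clone AK020632 of B2m has no value.

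All 4 members were called, where 54.9% of the 5731 tested genes were, 27.8% on the spleen side and 27.1% on the liver side. Being called thus sets the members little apart. Their place among tested genes was further out on the spleen side: 5.0% of tested genes (286) had a lower mean log2 ratio than Ciita, 5.3% (303) a lower one than H2-Oa and 8.3% (478) a lower one than Cd74. B2m had 74.7% of tested genes below it. By array, 6.37%, 4.03% and 6.94% of tested genes lay below Ciita on arrays 1, 2 and 3, and 3.33%, 7.96% and 8.03% below H2-Oa. For Cd74 the shares were 5.88%, 7.33% and 21.0%, and for B2m 79.6%, 59.5% and 79.5%. Among the 3 class II members, Cd74 on array 3 was the one gene mean with more than 8.03% of tested genes below it.

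**Figure D2:**
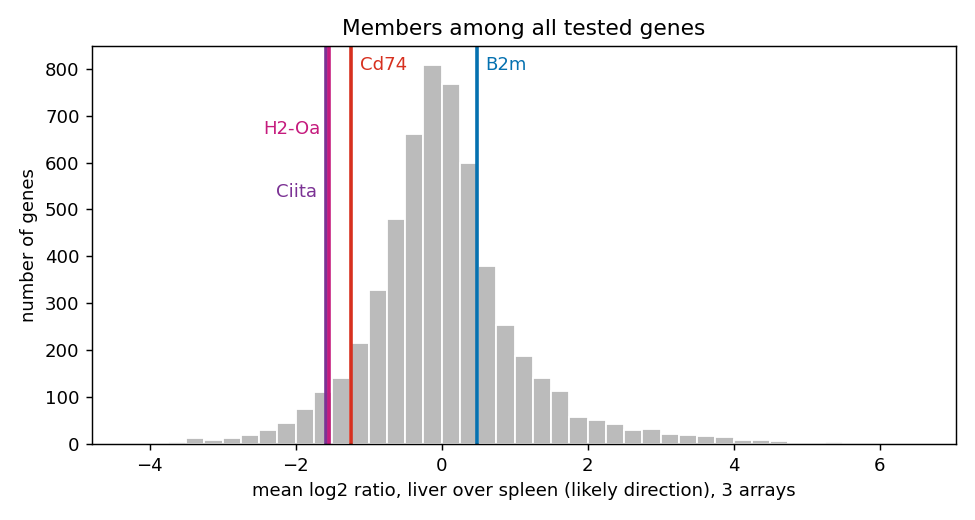
Histogram of the mean log2 ratio over 3 arrays for the 5731 tested genes, with a vertical line at each of the 4 genes. Ciita (-1.59), H2-Oa (-1.54) and Cd74 (-1.24) stand on the left flank, and B2m (0.48) stands just right of the centre.

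The order of the means was Ciita, H2-Oa, Cd74 and B2m, from the spleen side to the liver side. The class II genes did not separate beyond their spread. Ciita minus H2-Oa was -0.05 ± 0.45 (SD of the log2 difference over 3 arrays) and changed sign between arrays. Ciita minus Cd74 was -0.35 ± 0.39 and H2-Oa minus Cd74 -0.30 ± 0.34, each also with both signs. H2-Oa was lowest of the 3 on array 1, whereas Ciita was lowest on arrays 2 and 3.

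B2m stood apart from each of the 3 class II members on each array. The highest mean of these members on any array was -0.62 (Cd74, array 3), and the lowest B2m value was 0.22 (array 2). This did not hold for H2-Aa, a class II gene outside the members, with 0.55 on array 1 and 2.20 on array 2. B2m had 0.67 and 0.22 on these arrays. Within arrays, Ciita lay below B2m by log2 differences of -2.18, -2.14 and -1.87, a mean of -2.06 ± 0.17 (SD, n = 3 arrays), or 4.18-fold. H2-Oa minus B2m was -2.60, -1.68 and -1.77, a mean of -2.02 ± 0.51, or 4.04-fold. Cd74 minus B2m was -2.24, -1.73 and -1.16, a mean of -1.71 ± 0.54, or 3.28-fold. The difference varied least for Ciita, and for each of the 3 genes it was largest on array 1.

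With the B2m ratio of each array subtracted from all 5730 other genes, limma gave adjusted p of 7.04e-17, 3.83e-16 and 5.92e-12 for Ciita, H2-Oa and Cd74. These are too small, because the error of B2m is shared by every difference and the fit took the common variance as known. With the moderated errors of both genes combined, a setting added after seeing the data, the limma-based adjusted p was 0.00127 for Ciita (95% interval of the log2 difference -2.58 to -1.55), 0.00155 for H2-Oa (-2.56 to -1.48) and 0.00404 for Cd74 (-2.35 to -1.07). With each difference's own variance it was 0.0494, 0.0764 and 0.0902, so that only Ciita passed. Of all genes, 49.8% were called below B2m in the first fit, 44.3% with the combined errors and 4.35% with each difference's own variance. A shift common to all genes of an array cancels in these differences, while a dye effect on a single gene does not.

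**Figure D3:**
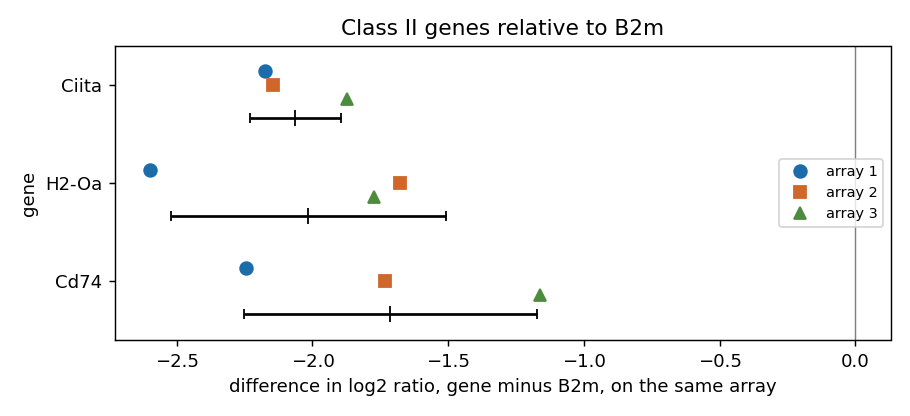
Difference in log2 ratio between each of the 3 class II members and B2m on the same array, with points for the 3 arrays and bars for mean ± SD. All 9 differences lie at -1.16 or below.

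The other genes of both pathways were taken from lists by role. Of 11 class II peptide-binding and chaperone chain genes, 3 had a single-gene spot: H2-Oa, Cd74 and H2-Aa. H2-Aa, the alpha chain of the classical class II molecule I-A, went against the members, with log2 ratios of 0.55 on array 1 and 2.20 on array 2 and none on array 3. It came from 1 clone, AK002532, and was not tested on 3 arrays. With 2 arrays allowed its mean of 1.37 was not called (limma adjusted p = 0.0503, 6919 genes). Of the 3 class II chain genes with a value, 2 were thus on the spleen side and 1 on the liver side of the arrays that measured it.

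Of 12 class II transcription factor genes, 4 were tested, 2 were called on the spleen side and none on the liver side. Over all tested genes 27.8% and 27.1% were called on these sides. The median log2 ratio was -0.31, against -0.03 over all tested genes. Besides Ciita the called gene was Creb1, which binds the X2 box (-0.79 ± 0.33, limma adjusted p = 0.00901, and 0.0706 without array 1). The 4 clones of Creb1 disagreed, with means of -1.54, -1.83, 0.10 and 0.10. The NF-Y subunits Nfyb (0.18 ± 0.12) and Nfyc (0.34 ± 0.43) were not called. Nfya (0.60 and 0.57 on arrays 2 and 3), the RFX subunit Rfxank (0.22 and 0.13 on arrays 1 and 3) and the myeloid and B-cell factor Irf8 (0.30 on array 3) were not tested. Among these regulators Ciita had the gene mean furthest to the spleen side, although the Creb1 clone with a mean of -1.83 lay further out. The NF-Y and RFX subunits with a value had positive gene means on each array that measured them.

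Of 14 genes for class II peptide generation, turnover and partners, 8 were tested, with 4 higher in spleen, 1 in liver and a median of -0.44. Over all tested genes 27.8% were called higher in spleen and 27.1% higher in liver. Cd83, a surface protein that keeps class II on activated dendritic and B cells, stood at -4.01 ± 0.14 (limma adjusted p = 3.18e-05). The lysosomal protease Ctsh (-1.40 ± 0.17), the co-receptor Cd4 (-0.80 ± 0.16) and the protease inhibitor Cst3 (-0.69 ± 0.03) followed on the spleen side. Cst3 was not called without array 1 (limma adjusted p = 0.0512). Ctsz, another protease, was higher in liver (0.76 ± 0.39), but not called without array 1 (limma adjusted p = 0.110).

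The protease that trims the invariant chain in B cells and dendritic cells, Ctss, was not called (-0.19 ± 0.15, limma adjusted p = 0.232). Neither were Ctsd (0.29 ± 0.26) and Sppl2a (0.33 ± 0.08), an intramembrane protease that clears the Cd74 stub. Ctsl, with ratios of 3.26 and 2.50 on arrays 2 and 3, Ctsb (0.09 and 0.21 on arrays 1 and 3) and the ubiquitin ligase Marchf1 (-0.22 and -0.08 on arrays 1 and 3) were not tested.

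The tested class I genes had mean log2 ratios from -0.19 to 1.10. Of 24 heavy chain genes and relatives, B2m included, 4 had a single-gene spot with a value, and 3 were tested. The classical heavy chain genes H2-K1, H2-D1 and H2-L were not among them. Of the tested genes, 2 were called on the liver side and none on the spleen side, with a median of 0.48. This median is the value of B2m itself, and B2m is 1 of the 2 called genes. Over all tested genes 27.1% and 27.8% were called on these sides. Hfe, the iron-regulating relative of class I that pairs with B2m, had log2 ratios of 0.53, 0.64 and 0.46 (mean 0.54 ± 0.09, limma adjusted p = 0.0113, and 0.0922 without array 1). Its difference from B2m, 0.06, was not called (limma adjusted p = 0.828 in the subtracted fit). Fcgrt, the neonatal Fc receptor chain, also a partner of B2m, was not called (-0.19 ± 0.20). It was called below B2m in the subtracted fit, at -0.67 (limma adjusted p = 0.0101, in a fit whose p-values are too small). Of its 7 spots, 4 carried 1 clone, AW557701, with means from -0.98 to -0.54, while the other spots had positive means of 0.36, 0.57 and 1.33. Cd1d1 had a value on array 3 only, of 0.25.

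Of 22 class I peptide loading genes, 7 were tested, with 2 higher in liver, none in spleen and a median of 0.22. Over all tested genes 27.1% were called higher in liver and 27.8% higher in spleen. The 2 genes higher in liver were the chaperone calreticulin (Calr, 1.10 ± 0.12) and the peptidase Ide (0.99 ± 0.31). The transporter subunit Tap2 (0.36 ± 0.47), its partner tapasin (Tapbp, 0.22 ± 0.14), the chaperone Canx (0.14 ± 0.18) and the proteasome activators Psme1 (-0.04 ± 0.16) and Psme2 (-0.14 ± 0.19) were not called. In the subtracted fit Calr was called above B2m (0.62, limma adjusted p = 0.0171). Psme1 (-0.52) and Psme2 (-0.62) were called below it (limma adjusted p of 0.048 and 0.0174). Ide, Tap2, Tapbp and Canx were not called as different from B2m. No tested gene of these class I lists reached the spleen-side ratios of Ciita, H2-Oa or Cd74, but no classical class I heavy chain gene was measured.

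**Figure D4:**
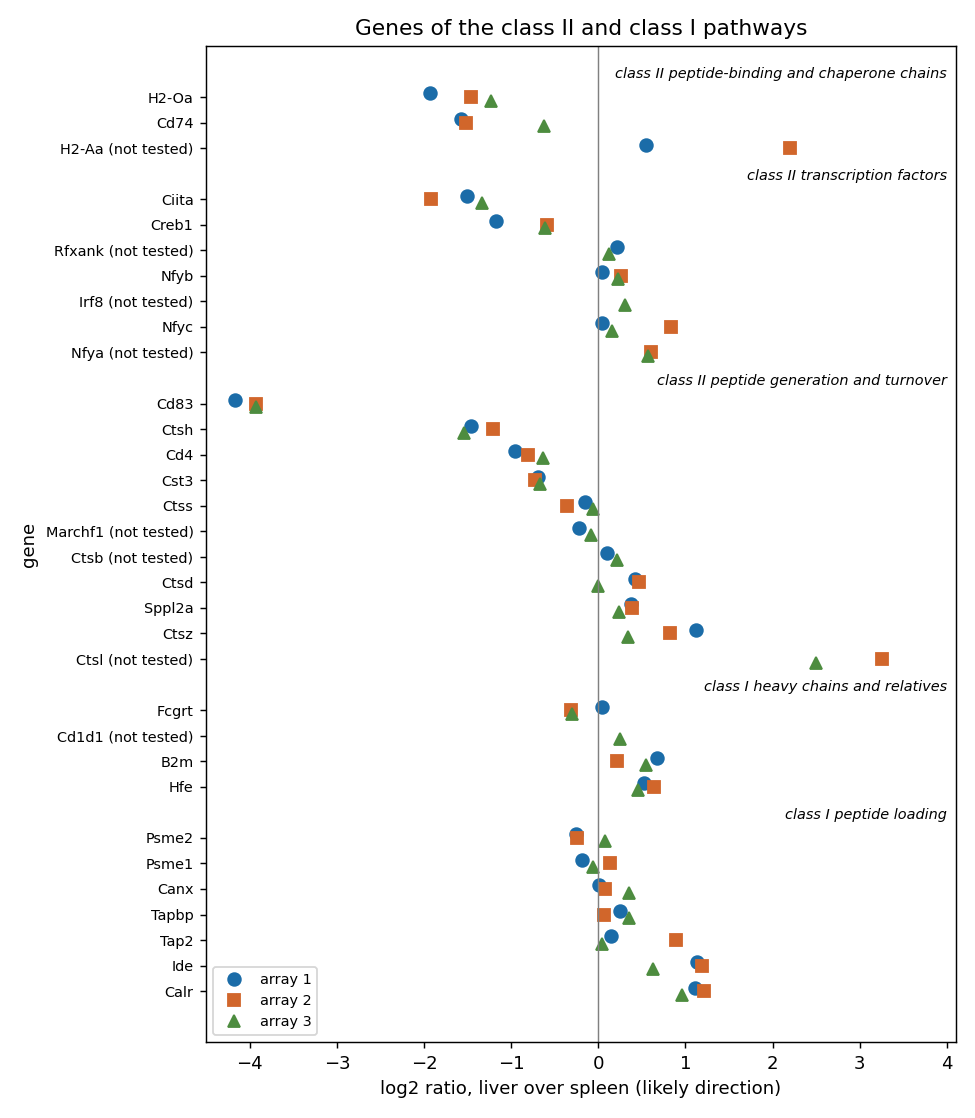
Log2 ratios of liver over spleen (likely direction) for genes of 5 pathway lists, 1 point per array with a value, with genes not tested for want of a value on all 3 arrays marked. Class II members and Cd83 lie left of 0, H2-Aa and Ctsl right of 0, and class I genes close to 0 or to its right.

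Of 16 genes commonly used as references, 6 were tested, and B2m lay within their range of -1.08 to 0.90. Hprt (0.10 ± 0.12), Ppia (0.11 ± 0.09) and Eef1a1 (0.05 ± 0.14) were not called, and none of these was called as different from B2m in the subtracted fit (limma adjusted p of 0.154, 0.174 and 0.105). Sdha, of mitochondrial complex II, was higher in liver (0.90 ± 0.22), and the ribosomal genes Rplp0 (-1.08 ± 0.12) and Rpl13a (-1.04 ± 0.22) were higher in spleen. In the subtracted fit Rplp0 (-1.56) and Rpl13a (-1.52) were called below B2m (limma adjusted p of 4.17e-10 and 1.3e-09). Sdha minus B2m (0.42) was not called (limma adjusted p = 0.109). Gapdh (0.83) and Gusb (0.19) had a value on array 3 only, and Tfrc had -0.31 and -0.24 on arrays 1 and 3.

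The tested markers of cells that carry class II were also on the spleen side, where 27.8% of all tested genes were called. The sign of the ratios was set from the B-cell and hepatocyte lists, so their sides are no finding, and only the sizes are described. All 4 tested of 18 B-cell genes were called there, with a median log2 ratio of -3.35, from Ms4a1 (-3.93 ± 0.39) and Pou2af1 (-3.41 ± 0.14) to Cr2 (-3.30 ± 0.95) and Ighm (-2.73 ± 1.04). Spib, not tested, had positive ratios of 1.11 and 0.77 on arrays 2 and 3 and is part of the list medians there. The B-cell median was nearest to 0 on array 3 (-2.20), as were Cd74, H2-Oa and Ciita. So was the hepatocyte median (4.97), and array 3 had the narrowest spread over all spots with a value (SD 0.976, against 1.12 and 1.22 on arrays 1 and 2). All 3 tested of 12 dendritic cell genes were called in spleen: Cd83, Itgae (-0.99 ± 0.89, not called without array 1 or array 3, limma adjusted p of 0.154 and 0.121) and Batf3 (-0.63 ± 0.28, limma adjusted p = 0.122 without array 1). The dendritic cell genes not tested were Itgax, which encodes the integrin CD11c (-2.33 and -1.51 on arrays 1 and 3), Zbtb46 (0.56 and 0.05 on arrays 2 and 3) and Fscn1 (0.19 on array 3).

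Both tested of 14 splenic macrophage and monocyte genes, Axl (-2.14 ± 0.06) and the iron exporter Slc40a1 (-0.89 ± 0.09), were called in spleen, and 5 more were not tested: Csf1r (0.49), Cd68 (0.12), Vcam1 (0.21) and Mertk (-0.23) had a value on array 3 only, and Ccr2 had -0.71 and -0.47 on arrays 1 and 3. Of 17 T and NK cell genes, 5 were tested, with 4 higher in spleen, led by Cd3g (-3.13 ± 0.62) and Cd8a (-2.90 ± 0.29), and Cd3d higher in liver (1.24 ± 0.16). Of 14 Kupffer cell and liver endothelium genes only Dpp4 had a value (0.16 on array 3), and none was tested. The 6 tested of 16 hepatocyte genes had a median of 5.18, from Fgb (4.14 ± 1.40) and Hal (4.33 ± 0.14) to F11 (5.65 ± 0.22) and Baat (5.68 ± 0.27). The 4 tested B-cell genes lay further to the spleen side than any class II member, and the part of cell numbers in the class II ratios was not tested.

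The genes with the most similar ratios were found by the Euclidean distance over the 3 arrays among tested genes. Nearest to Ciita were Rab11fip5 (distance 0.03 on the log2 scale), Lysmd2 (0.11) and Cbx7 (0.14). Nearest to H2-Oa were the beta globin Hbb-bt (0.08), Cenpp (0.11) and Bex3 (0.15), to Cd74 Cdc42ep3 (0.14), Sp3 (0.17) and 5830428M24Rik (0.23), and to B2m Clcn7 (0.06), Sptssa (0.06) and Pno1 (0.07). No member was among the 3 nearest of another member, and 3 arrays are few for such a measure.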

How the data were processed

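Each array was hybridised with spleen and liver RNA, 3 arrays in all. The authors deposited 1 log2 ratio of both channels per spot and array. Base 2 was inferred from the highest ratio, which then equals 100-fold. Background correction, normalization, spot filters and numerator: not given in the sources used here. Array medians were -0.02, 0.03 and 0.05 over spots with a value, and nothing else fixes scale and centring. An exact 0 was treated as missing.

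Gene symbols came from the platform annotation and were brought up to date with RefSeq names by Entrez ID (GRCm38.p6; 12228 spots matched); 12336 spots had 1 gene, 61 several and 3876 none. The spots of each gene were averaged within an array. Genes with a value on 3 arrays (5731) were tested for a mean ratio other than 0 (limma 3.58.1, R 4.3.3; lmFit and eBayes, two-sided, Benjamini-Hochberg over all genes, called at an adjusted p under 0.05). The fit had 2 residual and 3.51 prior degrees of freedom per gene. An exact sign-flip test on 3 arrays cannot give a p under 0.25. Tested on simulated ratios of 5731 genes, the gene fit recovered 74% of 50 genes changed by 1 on the log2 scale and 4% of 50 changed by 0.5, with 8 false calls. The simulation changed 50 genes at each size, whereas 3146 genes were called in the data. The adjustment of p depends on that share, so these recovery rates need not hold for the reported fit. The same fit was run on spots (10614) and on ratios minus B2m. Named genes were the members, every class II, class I and reference gene with a value, for cell type lists the 2 lowest and 2 highest called genes, and the 3 nearest genes of each member; Spib, Dpp4 and the dendritic cell and macrophage genes not tested were named after their values were seen. Members and lists were chosen with earlier results of these data known.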

Additional observations from a re-analysis of the deposited data

How the results depend on the processing

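Over 12 other settings (zeros kept, centring, scaling, ways to combine spots, clones left out, 2 arrays allowed, unmoderated variance and each array left out), no member or difference from B2m turned its sign. With each gene's own variance, the calls were lost for H2-Oa (-1.54), Cd74 (-1.24), B2m (0.48), H2-Oa minus B2m (-2.02) and Cd74 minus B2m (-1.71). That setting also gave 1461 called genes, 869 higher in liver and 592 in spleen, and 403 genes that differed from B2m, against 3146, 1551, 1595 and 3633 in the reported fits. The combined errors, added after seeing the data and without regard to the pairing within arrays, kept the 3 differences from B2m called, with 3246 genes called. With zeros kept, B2m was 0.24 and not called. Leaving out each array in turn gave log2 ratios from -1.54 to -1.07 for Cd74 and from 0.38 to 0.61 for B2m. It gave from 1841 to 3343 called genes, from 938 to 1530 higher in liver and from 903 to 1813 higher in spleen, with the lowest counts without array 1. The cause of these changes was not tested. Signal over background was not used here, so the reliability of a single ratio is unknown.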
